A study of Culter alburnus with 6 samples.

Results

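The FGF system of TCCF2022 cells and the phosphatases, sprouty proteins and ETS factors that act downstream of it were examined in the RNA-seq data. TCCF2022 is a wild-type cell line grown from the caudal fin of Topmouth culter, a cyprinid fish, and GEO labels its cells fibroblasts. Members were taken from the assembled transcript table by their names, a choice made with earlier results of these data known. A row was a member by the name of its best match in the NR protein database. That name was a fibroblast growth factor, a dual specificity protein phosphatase, a sprouty or sprouty-related protein, or an ETS translocation variant. This gave 79 of 61608 rows. Of these, 8 were secreted FGF ligands, 2 were FGF homologous factors, 13 were FGF receptors, 8 were FGF-binding or receptor adaptor proteins, 13 were MAP kinase phosphatases, 7 were sprouty or sprouty-related proteins, 3 were ETS translocation variants and 25 were other dual specificity phosphatases.

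Untreated cells gave 3 libraries (CK) and cells given 5 μM Forskolin gave 3 libraries (F), all at day 7. Per the labels, both groups grew in DMEM/F12 with 10% fetal bovine serum and 5 ng/ml bFGF at 27 °C, so the recombinant ligand was present in CK and F alike. The culture methods of the study give a higher bFGF concentration and a lower Forskolin dose than the labels do, while its legend for the sequenced groups gives the Forskolin dose of the labels and its primary culture the same bFGF. All libraries came from 1 cell line, and the study describes the libraries of a group as biological replicates.

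FGF ligands bind receptor tyrosine kinases at the cell surface, with heparan sulfate as a co-receptor, and the adaptor FRS2 links the active receptor to GRB2, RAS, RAF, MEK and ERK. ERK signalling is limited by its own target genes. Sprouty and SPRED proteins act above ERK, and MAP kinase phosphatases of the DUSP family remove the phosphates that activate ERK, JNK or p38. The ETS factors ETV4 and ETV5 are targets of FGF signalling in zebrafish and other vertebrates, where the pathway is needed for fin outgrowth and regeneration. bFGF is the protein encoded by Fgf2. Forskolin activates adenylate cyclase, which makes cAMP.

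Levels are TPM, which are scaled to transcript length and to the same total in each library, and errors are SD over n = 3 libraries. Changes are F minus CK on the log2(TPM + 1) scale, which understates the change of low rows. A row was tested where 3 or more of the 6 libraries reached 1 TPM, which 37532 rows did. It passed at an adjusted p under 0.05 from limma, in a two-sided test with Benjamini-Hochberg adjustment over those rows, and all adjusted p below are of this kind. For a single member an exact permutation test of 3 libraries against 3 cannot go below p = 0.1, so it cannot pass 0.05 here. In the log2 values of all tested rows, correlations were 0.875 to 0.897 between libraries of a group and at most 0.857 between groups. TPM keeps no depth and the study gives only an average read number per replicate, so no counting interval is given.

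Of the 79 members, 67 were tested and 12 were not, since fewer than 3 libraries reached 1 TPM. Among the tested members, 11 were higher in F, 7 were lower and 49 did not pass. That is 26.9% of the tested members, against 12.2% of all tested rows. Since the members were chosen with earlier results of these data known, this share is not an independent test. With a filter at 5 TPM, 16 of 40 members (40%) and 26.1% of all rows passed. Of the 314 tested rows that KEGG places in MAPK signalling, some of them members, 24.5% passed. With a log2 change beyond 1 in size as well, 6 members were higher (3.27% of all rows) and 3 were lower (3.9% of all rows), where 7.18% of all rows moved either way. The groups did not overlap in 29 tested members, or 43.3%, against 32.1% of all rows and 43.3% of the KEGG MAPK rows. The median log2 change was 0.09 in the tested members and −0.01 in all tested rows. Of the tested members, 2 (Fgf3 and Fgfrl1) reached 1 TPM in the libraries of only 1 group. In bulk RNA, fewer cells of a type and less RNA per cell cannot be told apart, and this holds for every value below.

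**Figure D1:**
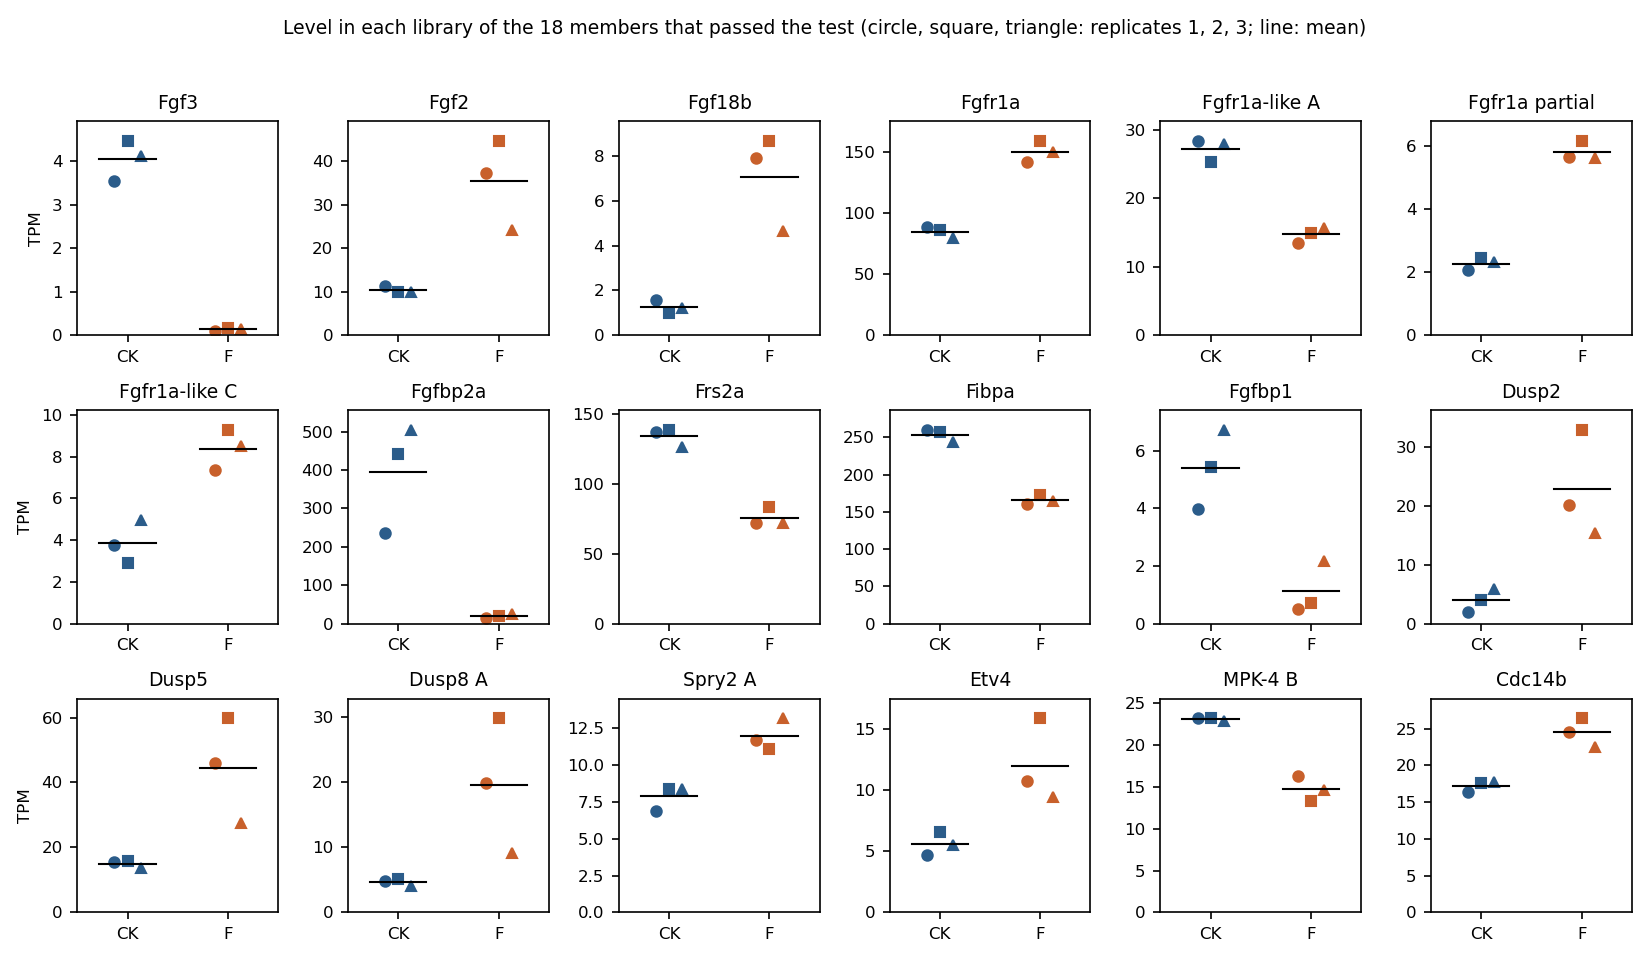
TPM of the 18 members that passed the test, 1 panel per member with its own axis from 0. Each symbol is 1 library (circle, square and triangle for replicates 1, 2 and 3), and the line is the group mean. In all 18 panels the 3 CK and the 3 F libraries do not overlap.

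Of the 7 tested ligands, 2 rose and 1 fell (6.15% and 6.07% of all rows). The 1 that fell, Fgf3, met the filter through its CK level only, so its count rests on that filter. Fgf2, the ligand that the medium also supplies as protein, was read at 11.2, 9.98 and 9.86 TPM in the CK libraries and at 37.2, 44.7 and 24.1 TPM in the F libraries. Every F library lay above every CK library, and the mean rose 3.42-fold (log2 change 1.64 ± 0.22 SE, adjusted p = 0.00737). These are the cells' own transcripts, since added protein gives no reads. Fgf2 was the most abundant ligand in both groups. By mean, it made up 45.2% ± 7.79 of the summed ligand TPM in CK and 69.8% ± 4.58 in F (SD, n = 3 libraries each).

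Fgf18b, of the FGF8 subfamily with roles in skeletal growth, rose from 1.55, 1.00 and 1.20 TPM in CK to 7.90, 8.68 and 4.64 TPM in F. The groups were again apart (log2 change 1.81 ± 0.27 SE, adjusted p = 0.0101). Fgf3, a ligand of the FGF7 subfamily known for its part in inner ear development, went the other way. It had 3.55, 4.47 and 4.13 TPM in CK and 0.10, 0.17 and 0.14 TPM in F, which is −2.15 ± 0.23 (SE) on the log2 scale (adjusted p = 0.00358). It reached 1 TPM in CK only, so it entered the test through the group where it was high, and without it 6 members were lower.

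The other 4 tested ligands did not pass. Fgf10 and Fgf7, which mesenchymal cells send to epithelia, had log2 changes of 0.11 and −0.18, and the acidic FGF rows Fgf1 and Fgf1b had 0.29 and 0.37. Each of these 4 rows overlapped between groups and stayed at or below 5.56 TPM. Fgf8 lay below the filter, with 0.68, 1.54 and 1.51 TPM in CK and 0.53, 0.76 and 0.59 TPM in F. The 2 homologous factors, Fgf12 and Fgf13b, which stay inside the cell and do not act on FGF receptors, were at most 1.47 TPM in any library and were not tested. Summed over the 8 ligand rows, TPM was 23.1 ± 2.24 in CK and 51.3 ± 18 in F, and F replicate 3 had the lowest F sum at 33.2.

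Of the 12 tested receptor rows, 3 rose and 1 fell (6.15% and 6.07% of all rows). All 4 were named for receptor 1-A and may be parts of 1 gene, so this is a count of rows and not of genes. Fgfr1a was the most abundant receptor and rose in F. The row named fibroblast growth factor receptor 1-A was the only one of the 13 receptor rows with an annotated kinase domain. It had 88.3, 86.3 and 79.3 TPM in CK and 142, 159 and 150 TPM in F, a 1.78-fold rise with no overlap (log2 change 0.82 ± 0.07 SE, adjusted p = 0.00196). It made up 49.3% ± 3.66 of the summed receptor TPM in CK and 67.1% ± 2.62 in F.

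A further 5 tested rows also had a best match named receptor 1-A, of which 2 rose, 1 fell and 2 did not pass. Fgfr1a partial rose from 2.05, 2.44 and 2.30 TPM to 5.65, 6.15 and 5.61 TPM (log2 change 1.06, adjusted p = 0.0117). Fgfr1a-like C rose from a mean of 3.88 ± 1.02 to 8.39 ± 0.988 TPM (log2 change 0.96, adjusted p = 0.0299). Fgfr1a-like D had 2.2, 1.44 and 0.69 TPM in CK and 5.89, 2.74 and 2.95 TPM in F, which did not overlap, and did not pass (log2 change 0.98, adjusted p = 0.154). In contrast, Fgfr1a-like A, whose annotated domains are immunoglobulin domains only, fell from 28.4, 25.3 and 28 TPM to 13.5, 14.9 and 15.7 TPM (log2 change −0.85, adjusted p = 0.00391). Fgfr1a-like B, assembled in the same Trinity cluster as Fgfr1a-like A, had 29.9, 36.9 and 44.6 TPM in CK and 18.7, 27.8 and 34.1 TPM in F, so that its groups overlapped (log2 change −0.47, adjusted p = 0.295). When TPM was summed over rows with the same NR name, the fall of the Fgfr1a-like sum did not pass (log2 change −0.66, adjusted p = 0.0515). These rows may be pieces, isoforms or paralogs of 1 gene, and reads shared between them could have been divided in any proportion, so their single values are uncertain. Summed over all 7 rows named for receptor 1-A, TPM was 158 ± 2.79 in CK and 210 ± 14.6 in F, a difference that was not tested.

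Fgfr1a-like C kept a log2 change of 0.81 to 1.12 in the alternatives. It did not pass without CK replicate 1 or 2 or without any 1 of the F libraries (adjusted p 0.0706 to 0.0901). Fgfr1a partial did not pass without F replicate 1 (adjusted p = 0.0514) or with the replicate block (adjusted p = 0.0625). Fgfr1a passed in every alternative, with log2 changes of 0.78 to 0.86.

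Rows named for receptors 2 and 3 were low. Fgfr2 had a mean of 3.83 ± 0.251 TPM in CK and 2.76 ± 0.176 TPM in F and did not pass (adjusted p = 0.267). Of the 4 Fgfr3 rows 0 passed in limma, also at an unadjusted p under 0.05, and their summed TPM was 9.40 ± 0.886 in CK and 10.2 ± 2.46 in F. Fgfrl1, a receptor-like protein without a kinase domain, stayed at or below 1.63 TPM.

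**Figure D2:**
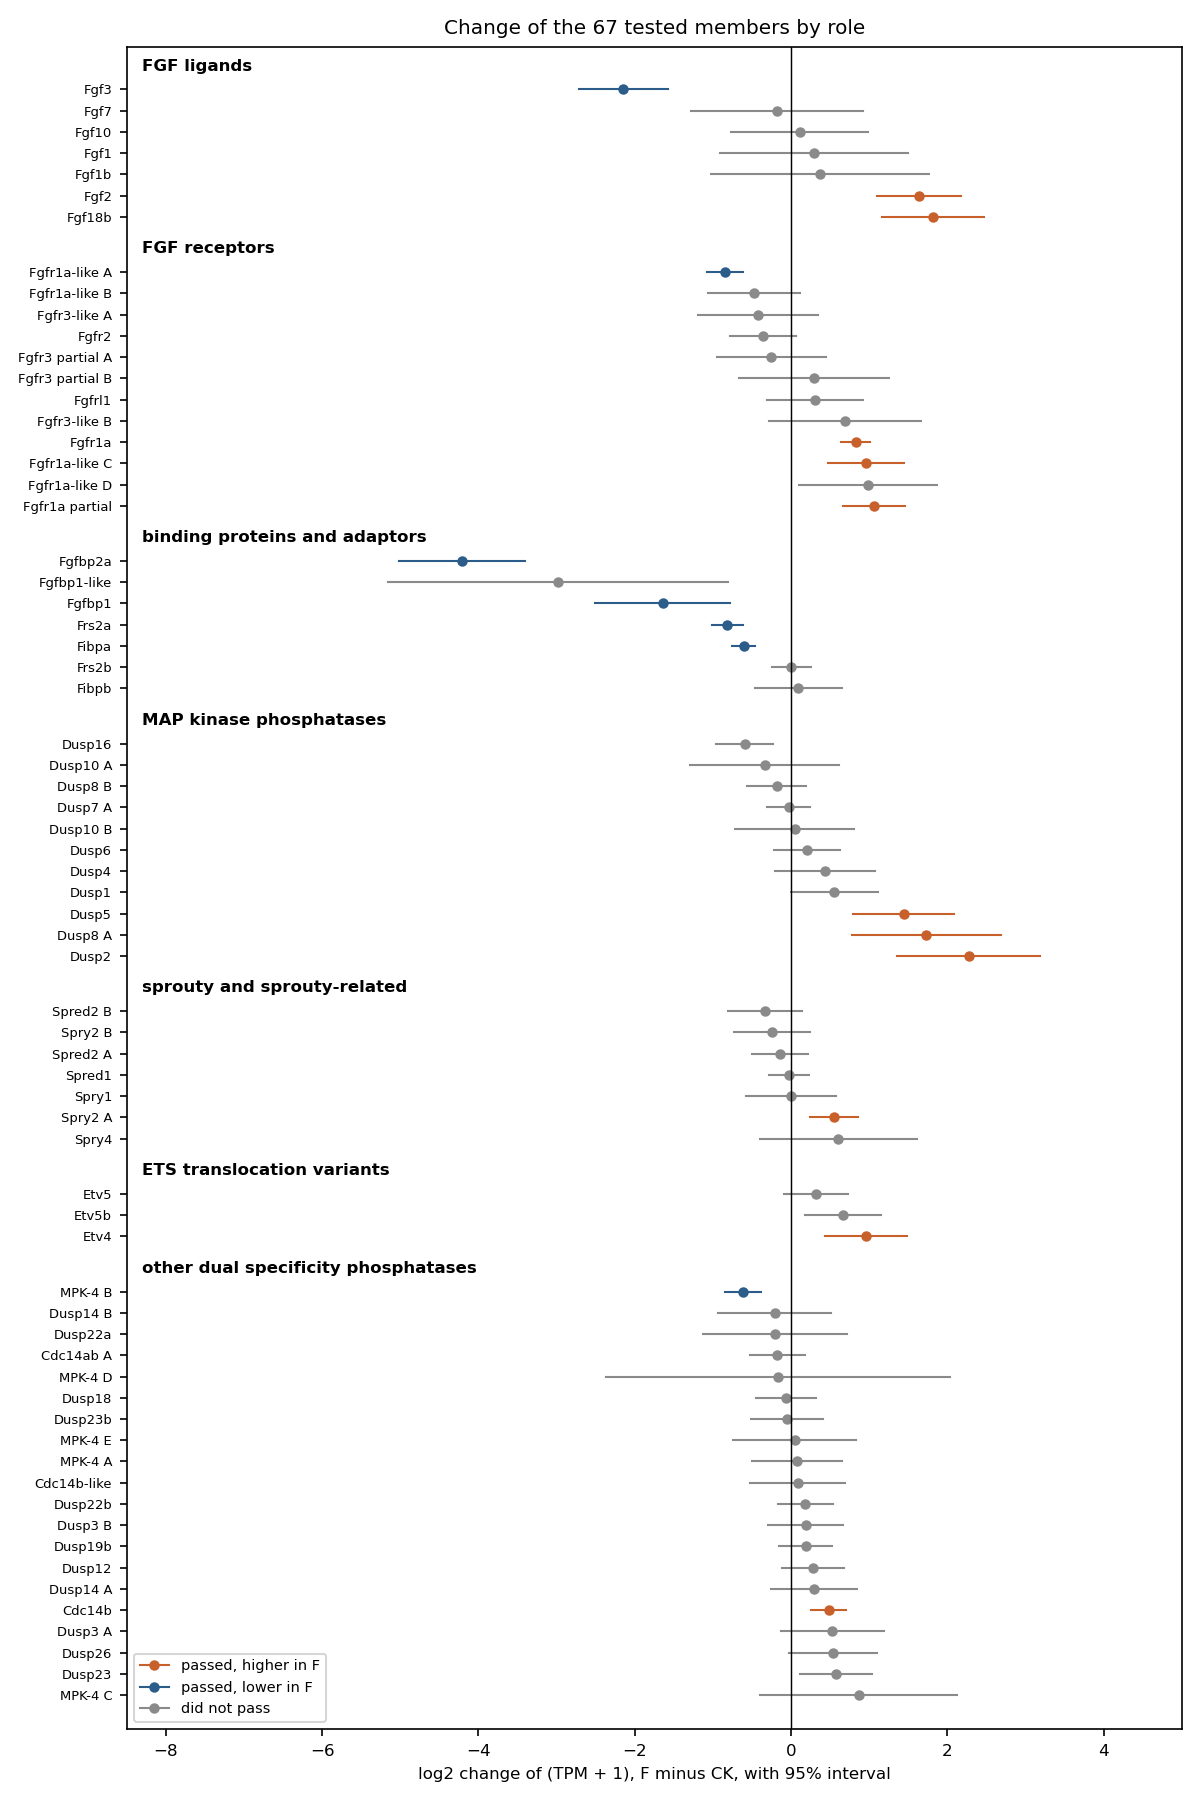
Log2 change of (TPM + 1), F minus CK, of the 67 tested members, grouped by role, with 95% intervals from limma. Orange and blue mark the 11 members that passed higher and the 7 that passed lower in F. The binding proteins and adaptors, with 7 tested rows, hold 4 of the 7 lower members. Of the 11 higher members, 3 are among the 11 tested MAP kinase phosphatases and 3 among the 12 tested FGF receptor rows.

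Of the 7 tested binding proteins and adaptors, 4 were lower in F (6.07% of all rows were lower) and 0 were higher by limma, also at an unadjusted p under 0.05. Fgfbp2a, whose best match is named an FGF-binding protein, had the largest change of all members. It was read at 235, 442 and 505 TPM in CK and at 14.6, 18.8 and 26.2 TPM in F. The CK mean was 19.9 times the F mean (log2 change −4.21 ± 0.33 SE, adjusted p = 0.00128), and by its CK mean it was the most abundant of all 79 rows. Its relative Fgfbp1, which in mammals releases FGFs from heparan sulfate in the matrix, fell from 3.99, 5.44 and 6.74 TPM to 0.50, 0.72 and 2.17 TPM (log2 change −1.64, adjusted p = 0.0334). Fgfbp1 did not pass without any 1 of the CK libraries, F replicate 1 or F replicate 2 (adjusted p 0.0684 to 0.114). The Fgfbp1-like row was assembled in the same Trinity cluster as Fgfbp1, so reads shared between them could have been divided in any proportion. This Fgfbp1-like row was uneven among the CK libraries, with 2.87, 17.9 and 26.8 TPM, and had 0, 0 and 3.12 TPM in F. It did not pass (log2 change −2.98, adjusted p = 0.0895) except without CK replicate 1 (log2 change −3.84, adjusted p = 0.0432).

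The docking protein Frs2a, through which FGF receptors reach GRB2 and the phosphatase SHP2, fell from 137, 139 and 126 TPM in CK to 71.9, 83.6 and 72.3 TPM in F. The libraries of a group were close to each other, and no library of one group reached the other (log2 change −0.82 ± 0.08 SE, adjusted p = 0.00295). Fibpa, an intracellular protein that binds FGF1, fell from 260, 257 and 244 TPM to 160.0, 173 and 165 TPM (log2 change −0.61, adjusted p = 0.00296). It is named by its NR match, and its Swiss-Prot match is Fibpb. The paralogs named Frs2b and Fibpb had changes close to 0 (log2 changes 0.00 and 0.09). For Frs2b the 95% interval of the change ran from −0.25 to 0.26, so a change of the size seen in Frs2a lies outside it.

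Among the MAP kinase phosphatases, 3 of 11 tested rows rose (6.15% of all rows were higher) and 0 were lower by limma, with 1 lower (Dusp16) at an unadjusted p under 0.05. All 3 had log2 changes above 1. Counting either direction, 27.3% of the tested rows of this role passed, near the 24.5% of the tested KEGG MAPK rows and against 12.2% of all tested rows. Dusp2, a nuclear phosphatase of ERK and p38, had 2.04, 4.06 and 5.82 TPM in CK and 20.1, 32.9 and 15.4 TPM in F. The lowest F library was well above the highest CK library (log2 change 2.27 ± 0.38 SE, adjusted p = 0.0147). Dusp2 just missed the threshold without CK replicate 2 (log2 change 2.32, adjusted p = 0.0553) or F replicate 1 (log2 change 2.32, adjusted p = 0.0526).

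Dusp5, a nuclear phosphatase specific to ERK, rose from 15.5, 15.8 and 13.8 TPM to 46.1, 59.8 and 27.7 TPM (log2 change 1.44 ± 0.27 SE, adjusted p = 0.0204). The CK libraries were close to each other, while the F libraries were spread. It did not pass without any 1 of the CK libraries or F replicate 1 (log2 changes 1.38 to 1.48, adjusted p 0.0650 to 0.0754). Dusp8 A, one of 2 tested rows named for Dusp8, a phosphatase of JNK and p38, rose from 4.78, 5.11 and 4.06 TPM to 19.9, 29.8 and 9.14 TPM (log2 change 1.73 ± 0.39 SE, adjusted p = 0.0387). The second row, Dusp8 B, did not pass (log2 change −0.19, adjusted p = 0.545). Dusp8 A passed with all libraries and without F replicate 3, but not without any other library (adjusted p 0.0732 to 0.120), and the sum of the rows with its NR name did not pass (log2 change 1.04, adjusted p = 0.0783).

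Dusp6, the cytoplasmic ERK phosphatase best known as an FGF target, did not pass. It was read at 8.63, 10.5 and 11.4 TPM in CK and 12.8, 13.6 and 9.39 TPM in F, and the groups overlapped (log2 change 0.20, 95% interval −0.22 to 0.62, adjusted p = 0.564). Its close relative Dusp7 A, assembled in the same Trinity cluster, had a log2 change of −0.03. Reads shared between these rows could have been divided in any proportion, so their single values are uncertain. The nuclear phosphatases Dusp1 and Dusp4 had log2 changes of 0.55 and 0.43 and did not pass (adjusted p = 0.200 and 0.388). Dusp1 had 31.6, 35.4 and 35.4 TPM in CK and 41.1, 73.9 and 41.9 TPM in F, which did not overlap. Dusp4 had 36.3, 38.8 and 39.1 TPM in CK and 59.0, 70.1 and 33.2 TPM in F, and only F replicate 3 lay below the CK libraries. Without that library Dusp4 passed (log2 change 0.74, adjusted p = 0.0160).

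The most abundant phosphatase was Dusp16, which acts on JNK and p38. It had 153, 164 and 142 TPM in CK and 125, 83.6 and 98.6 TPM in F. Each F library lay below each CK library, yet the difference did not pass (log2 change −0.59 ± 0.15 SE, adjusted p = 0.0545). It passed without F replicate 1 (log2 change −0.74, adjusted p = 0.0260), with a filter at 5 TPM (adjusted p = 0.0334) and with TPM summed per NR name (adjusted p = 0.0495). Dusp16 made up 53.6% ± 1.85 of the summed TPM of the 13 phosphatase rows in CK and 30.0% ± 7.67 in F.

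The sum of the 11 tested rows was 284 ± 12 TPM in CK and 331 ± 68.3 TPM in F, with 256 TPM in F replicate 3 alone below the CK range. The second row named for Dusp7, Dusp7 B, was at 0 in 5 libraries and at 41.8 TPM in F replicate 3, and was not tested.

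**Figure D3:**
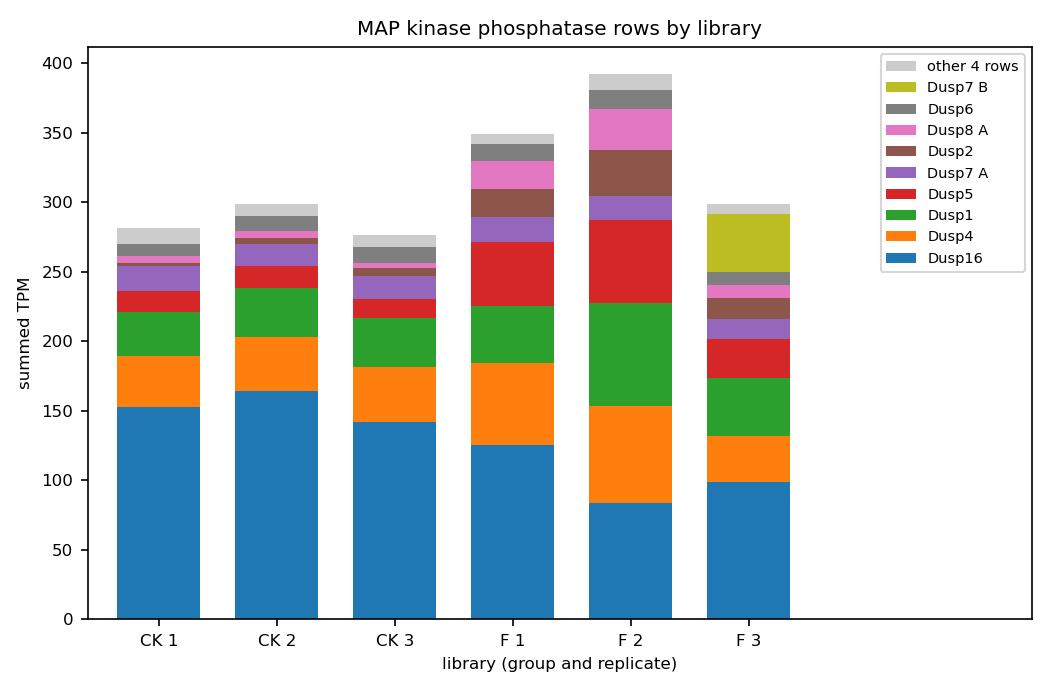
Summed TPM of the 13 MAP kinase phosphatase rows in each library, stacked by row from 0. Dusp16 is the largest part in all 6 libraries, with 142 to 164 TPM in CK, and Dusp5, Dusp2 and Dusp8 A are wider in each F library than in any CK library. Dusp7 B appears in F replicate 3 only.

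Of the 7 sprouty and sprouty-related rows, 1 rose and 0 were lower by limma, also at an unadjusted p under 0.05, and this share of 14.3% is near the 12.2% of all tested rows. Spry2 A, one of 2 rows named for the receptor tyrosine kinase inhibitor sprouty 2, had 6.88, 8.34 and 8.38 TPM in CK and 11.7, 11.1 and 13.2 TPM in F (log2 change 0.55 ± 0.13 SE, adjusted p = 0.0425). The groups did not overlap, but the row did not pass when any 1 of the 6 libraries was left out (adjusted p 0.0619 to 0.122). Spry2 B had a log2 change of −0.24 (adjusted p = 0.542), and the sum of both rows did not pass (log2 change 0.33, adjusted p = 0.138).

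Spry4 was the most abundant of these rows and the one whose F libraries differed most. It had 13.5, 16.1 and 15.9 TPM in CK and 25.4, 42.3 and 11.9 TPM in F. Both F replicate 1 and F replicate 2 were above the CK libraries and F replicate 3 was below them, and the row did not pass (log2 change 0.61, 95% interval −0.40 to 1.61, adjusted p = 0.451). Spry1 had a log2 change of 0.00. Spred1, which brings the RAS inhibitor neurofibromin to the membrane, averaged 11.4 ± 0.145 TPM in CK against 11.1 ± 0.951 in F, a log2 change of −0.03 (95% interval −0.28 to 0.22). The 2 Spred2 rows had log2 changes of −0.33 and −0.14 and did not pass.

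The 3 ETS translocation variants were the transcription factors Etv4, Etv5b and Etv5. Etv4 rose from 4.73, 6.54 and 5.55 TPM to 10.7, 15.9 and 9.44 TPM (log2 change 0.96 ± 0.22 SE, adjusted p = 0.0386). It did not pass without any 1 of the CK libraries, F replicate 1 or F replicate 2 (adjusted p 0.0608 to 0.116). Etv5b had 5.95, 6.35 and 7.96 TPM in CK and 11.1, 14.4 and 8.80 TPM in F. Its groups did not overlap, and it did not pass (log2 change 0.66, adjusted p = 0.0914) except after quantile normalization (log2 change 0.67, adjusted p = 0.0439). Etv5, the most abundant of the 3 with 10.7 ± 0.615 TPM in CK and 13.8 ± 2.88 TPM in F, did not pass either (log2 change 0.32, adjusted p = 0.311), except without F replicate 3 (log2 change 0.49, adjusted p = 0.0487).

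Among the other dual specificity phosphatases, 2 of 20 tested rows passed, or 10% against 12.2% of all tested rows. Cdc14b, a cell cycle phosphatase that acts on substrates of cyclin-dependent kinases, rose from 16.4, 17.6 and 17.8 TPM to 24.6, 26.4 and 22.5 TPM (log2 change 0.48, adjusted p = 0.0220). This row has the NR name CDC14B but the Swiss-Prot match CDC14A, so its paralog is unsettled. It did not pass without any 1 of the CK libraries or F replicate 1 (adjusted p 0.0687 to 0.0847). MPK-4 B, 1 of 5 rows whose NR name is phosphatase MPK-4 and which have no Swiss-Prot match or annotated domain, fell from 23.2, 23.2 and 22.9 TPM to 16.3, 13.3 and 14.6 TPM (log2 change −0.62, adjusted p = 0.0117). It did not pass without CK replicate 1 or 2 (adjusted p = 0.0518 and 0.0607), and the sum of the 5 rows had a log2 change of −0.03. In this group the largest change was that of MPK-4 C (log2 change 0.86, adjusted p = 0.385) and the highest mean over all 6 libraries that of Dusp19b, with 21.9 ± 2.1 TPM in CK and 25.2 ± 4.31 TPM in F. The other 16 tested rows, all of them without a pass, had log2 changes between −0.21 and 0.57.

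The F libraries were not equally far from CK. In 23 of the 67 tested members F replicate 2 was the highest and F replicate 3 the lowest of the F libraries, an order that was looked for after the values were seen. It held in 5 of 7 ligands, 5 of 11 MAP kinase phosphatases, 4 of 7 sprouty rows and 2 of 3 ETS variants. In the remaining roles it held in 2 of 12 receptor rows, 1 of 7 binding proteins and adaptors and 4 of 20 other dual specificity phosphatases. The same order held in 25.7% of all tested rows and in 38.6% of all rows that were higher in F. In lists of other genes of the pathway it held in 9 of 16 genes from RAS to ERK, 10 of 12 adaptors, 15 of 17 immediate early and ERK-responsive genes, 6 of 12 other feedback inhibitors and 14 of 16 heparan sulfate genes. Fgf2, Fgf18b, Dusp2, Dusp5, Dusp8 A, Spry4 and Etv4 all had it, and so did Fgfr1a partial and Cdc14b. Fgfr1a did not, with 142, 159 and 150 TPM in F replicates 1, 2 and 3. Because the libraries form 2 separate groups of 3, a correlation of ligand or receptor levels with the feedback genes over all 6 would only restate the difference between groups, and none is given.

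**Figure D4:**
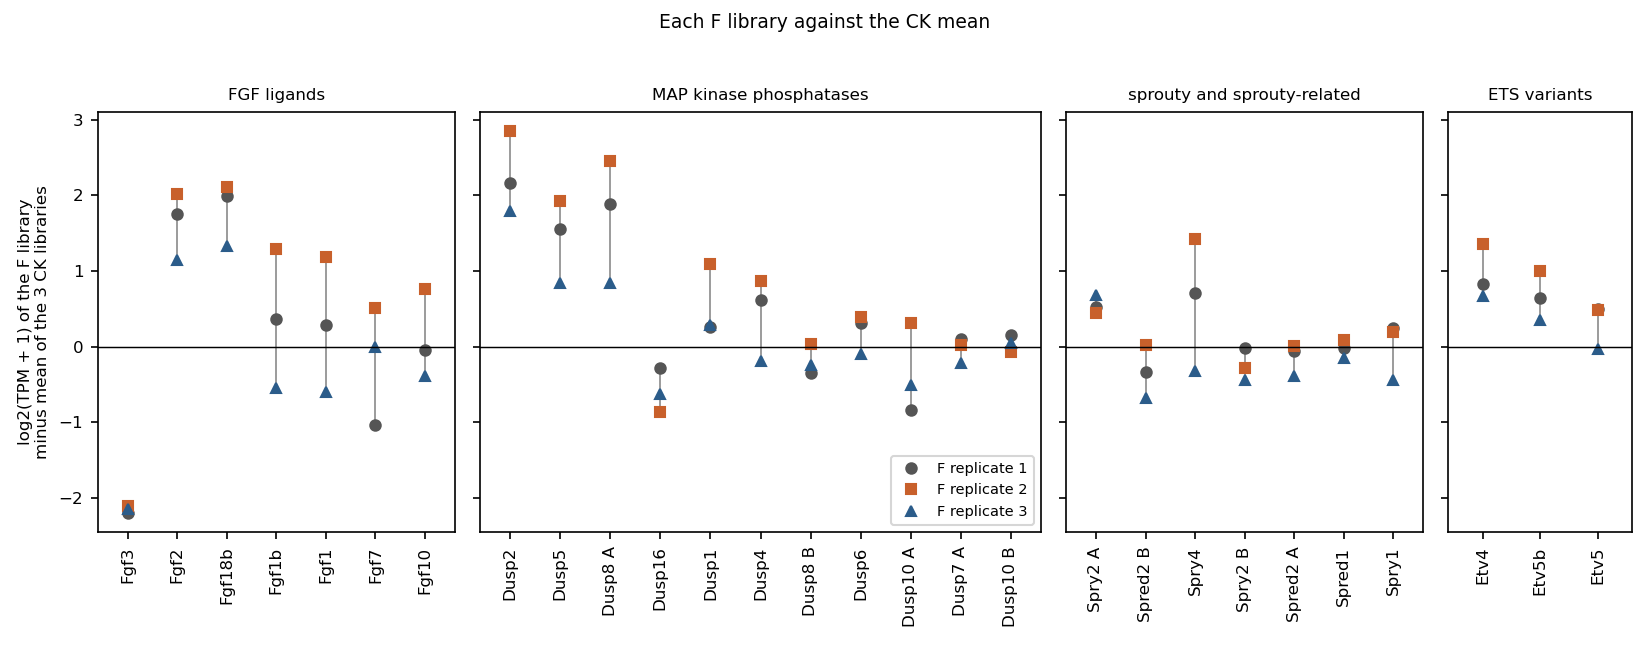
Log2(TPM + 1) of each F library minus the mean of the 3 CK libraries for the tested ligands, MAP kinase phosphatases, sprouty rows and ETS variants. The grey line joins the 3 F libraries of a row. F replicate 2 (orange square) is above F replicate 3 (blue triangle) in Fgf2, Dusp5, Spry4 and Etv4, and in Spry4 and Dusp4 F replicate 3 lies below the CK mean.

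In all, 5 lists of other genes of the pathway were read from the same fit, with 1 row per gene, the most abundant. All 5 lists were chosen with earlier results of these data known, so the share of a list is not an independent test. Of 16 genes from RAS to ERK and its kinases, 1 was higher and 1 was lower, or 12.5% against 12.2% of all tested rows. Rps6ka3, an RSK kinase activated by ERK, rose from a mean of 1.83 ± 0.505 to 6.10 ± 0.854 TPM (log2 change 1.33, adjusted p = 0.0131), and the scaffold Ksr1 fell (log2 change −0.68, adjusted p = 0.0168). Map2k1, the most abundant row of the list, did not pass (log2 change 0.31, adjusted p = 0.111). Of 12 receptor adaptors, 2 were higher, and this share of 16.7% is near the 12.2% of all tested rows. They were the docking protein Gab1 (log2 change 0.88, adjusted p = 0.0114) and Nck1 (log2 change 0.79, adjusted p = 0.00457). By limma 0 of the 12 were lower, also at an unadjusted p under 0.05. Grb2 did not pass (log2 change −0.36, adjusted p = 0.196), though each F library lay below each CK library.

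Of 17 tested immediate early genes and ERK-responsive factors, 4 rose (6.15% of all rows were higher) and 0 were lower by limma, with 1 lower at an unadjusted p under 0.05. They were Ier3 (log2 change 1.56), Junb (log2 change 1.07), Phlda1 (log2 change 1.28) and Fosl1 (log2 change 1.40), with adjusted p of 0.0079 to 0.0371. Phlda1 was low, with 0.19, 0.10 and 0.18 TPM in CK and 1.91, 2.15 and 1.41 TPM in F. It reached 1 TPM in F only, so it entered the test, and the count of 4, through the group where it was high. With Phlda1 counted, 23.5% of the list passed, against 12.2% of all tested rows. At a filter of 5 TPM, 26.1% of all rows passed. Ier3, Junb and Fosl1 were above 1 TPM in all 6 libraries. Junb, an AP-1 subunit, was the most abundant at 307 ± 25.7 TPM in CK and 658 ± 170 TPM in F. Egr1 had 81.8, 119 and 129 TPM in CK and 105, 240 and 52.8 TPM in F, so that the F libraries lay on both sides of CK (log2 change 0.03, adjusted p = 0.983).

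Of 12 tested genes listed as other feedback inhibitors, 2 were higher and 2 were lower (6.15% and 6.07% of all rows). Errfi1, an inhibitor of the EGF receptor rather than of FGF receptors, rose from 1.11, 1.85 and 2.38 TPM to 16.2, 28.4 and 9.09 TPM (log2 change 2.66, adjusted p = 0.0113), and the RAF-binding protein Pebp1 rose (log2 change 0.66, adjusted p = 0.0208). The RAS GTPase-activating protein Rasa3 fell (log2 change −0.58, adjusted p = 0.0180), as did Flrt3 (log2 change −1.01, adjusted p = 0.00215), a membrane protein that promotes FGF signalling in Xenopus. Peak1, the most abundant of the list, did not pass (adjusted p = 0.501).

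Of 16 tested genes of heparan sulfate, the co-receptor of FGFs, 7 were higher and 1 was lower, or 50% against 12.2% of all tested rows, and 4 were lower at an unadjusted p under 0.05. The list was chosen with earlier results of these data known, so its share is not an independent test. It holds the most abundant row of each gene, and with a filter at 5 TPM 26.1% of all rows passed. The core protein Gpc6 (log2 change 1.77, adjusted p = 0.000866) and the matrix proteoglycan perlecan, Hspg2 (log2 change 1.22, adjusted p = 0.00166), rose. Gpc1, the most abundant carrier, fell from 537, 574 and 607 TPM to 349, 370.0 and 339 TPM (log2 change −0.70, adjusted p = 0.00355). Sulf1, an extracellular enzyme that removes sulfate from heparan sulfate, rose from 16.1, 11.1 and 9.04 TPM to 36.7, 41.4 and 36.5 TPM (log2 change 1.61, adjusted p = 0.00551). The other higher rows were Sulf2, Agrn, Sdc4 and Ndst1, with log2 changes of 0.62 to 1.40.

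**Figure D5:**
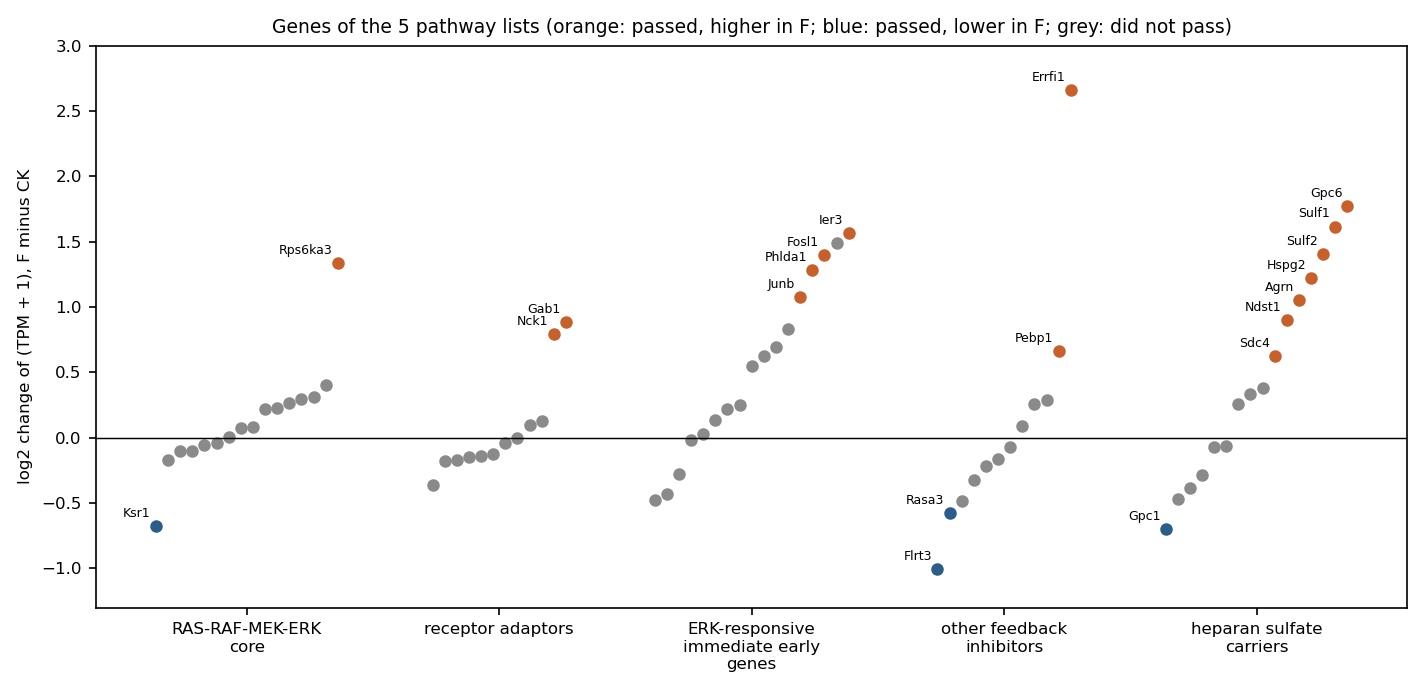
Log2 change of (TPM + 1), F minus CK, of each tested gene of the 5 pathway lists, ordered by size within a list. Orange marks genes that passed higher in F, blue those that passed lower, and grey those that did not pass. The heparan sulfate list has 7 orange points and the RAS to ERK list has 1.

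Cell type markers were checked against the label of fibroblasts. Of 13 fibroblast markers 12 had a row and all 12 were tested, with summed levels of 6636 to 7213 TPM in CK and 4517 to 6642 TPM in F. Of the 12, 1 was higher and 3 were lower, or 33.3% against 12.2% of all tested rows, and 8 did not pass. Lum, Col1a2 and Thy1 fell and Dcn rose, while Col1a1 did not pass (log2 change −0.18). Of 8 epithelial markers 5 had a row, with summed levels of 6366 to 6578 TPM in CK and 5039 to 5587 TPM in F, nearly all of it from the keratins Krt8 and Krt18. Epcam fell from 90.5, 83.7 and 77.2 TPM to 32.5, 29.3 and 31.6 TPM (log2 change −1.40, adjusted p = 0.000542), and Krt8 and Krt18 did not pass. Leukocyte markers summed to 5.13 to 8.44 TPM in CK and 7.62 to 11.2 TPM in F, and no row was matched to Ptprc or Csf1r. Of the 2 leukocyte markers tested, Cd74 rose (log2 change 0.71, adjusted p = 0.0466) and 1 did not pass, with a median log2 change of 0.22. Of all tested rows, 6.15% were higher. The 1 endothelial marker with a row, Kdr, fell from 8.55 to 9.35 TPM in CK to 1.43 to 1.86 TPM in F, and the muscle and pigment markers with a row summed to at most 9.01 TPM and 2.11 TPM. The part of any of these cell types in the changes of the FGF system was not tested.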

How the data were processed

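The authors deposited 1 TPM table of 61608 assembled rows for 6 libraries, with protein matches, domains and the group means. The TPM values were computed by the authors. The methods describe Trinity assembly and RSEM, while the processing notes name RSEM 1.3.3 beside TopHat2 2.1.1, Cufflinks 2.2.1 and DESeq2 1.24.0. The read depth behind each TPM value is not in the table. Members and pathway lists were chosen with earlier results of these data known. Row names come from proteins of other species, and letters A to E part rows with like names. Each list gene was read from the row with the highest mean TPM among those matching it by Swiss-Prot gene name or, for 25 genes whose Swiss-Prot match was missing or pointed to another gene, by NR name, a choice made after the table was seen. No pseudogene, isoform or paralog assignment was attempted, and 17 members had no Swiss-Prot match.

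The log2(TPM + 1) values of the 37532 rows that reached 1 TPM in 3 or more libraries entered 1 limma fit (version 3.58.1, R 4.3.3) with lmFit and a trended eBayes. Tests were two-sided with Benjamini-Hochberg adjustment over these rows. Named are each member that passed, the most abundant and most changed member of each role and, of each pathway list, up to 4 genes with the smallest adjusted p and the most abundant one. Dusp6, Dusp1, Dusp4, Dusp7, Egr1 and others outside that rule were chosen after their values were seen. The alternatives varied the pseudocount (0.1), the filter (none, or 5 TPM), the scaling (quantile or median-of-ratios), the eBayes trend, the replicate block, the summing of TPM per NR name and the fold threshold, and left out each library. A restriction to members with a Swiss-Prot match was added after seeing the data. Other software was Python 3.11.15, pandas 2.3.3, NumPy 2.4.6 and matplotlib 3.10.9. No sequences of the assembled rows were analysed here.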

Additional observations from a re-analysis of the deposited data

How the results depend on the processing

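No member that passed reversed its direction under the alternatives run, and 7 members passed in every one that gave a value: Fgf2, Fgf18b, Fgf3, Fgfbp2a, Fgfr1a, Fibpa and Frs2a. Of these Fgf3 entered the test through its CK level only. Of the 14 alternatives that gave them a value, Spry2 A passed in 3, Dusp8 A in 5 and Etv4 in 6. Without a filter, Dusp8 A, Etv4, Fgfbp1 and Spry2 A did not pass. Over the single members followed, 350 values stayed on their side of the threshold, 59 no longer passed and 7 newly passed. As reported, 11 members passed higher and 7 lower, and 6 and 3 with the fold threshold. Without the fold threshold the called members were 11 higher and 7 lower. With a filter at 5 TPM, which removes Fgf3, Fgfbp1 and Fgf18b, 1 member was called lower. With eBayes without trend, 7 members passed higher, and Cdc14b, Dusp8 A, Etv4 and Spry2 A no longer passed. Leaving out 1 library gave 3 to 11 members passing higher, 5 to 7 passing lower, 2 to 7 called higher and 2 to 3 called lower. In these fits 5.16% to 9.75% of all rows passed, against 12.2% with all libraries. The fewest passed higher without F replicate 1, and 11 did without F replicate 3, of which Dusp4 and Etv5 were new.

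The replicate numbers were not shown to pair the libraries. Same-numbered CK and F libraries had correlations of their deviations of 0.0055, 0.0090 and 0.0061, below 0.1, although each was the highest of its row, which is only a hint from the data. With the replicate block 5 members passed higher and 6 lower, and over all rows 941 were higher and 1071 lower, against 2310 and 2277 without it. Members that no longer passed with it were Cdc14b, Dusp8 A, Etv4, Fgfr1a partial, Fgfr1a-like C, MPK-4 B and Spry2 A.

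Depth is not kept in TPM, and the study gives only an average read number per replicate. The counting error of rows of a few TPM, such as Fgf18b, Fgf3 and the minor receptor rows, was not estimated. In all, 12 members were not tested because fewer than 3 libraries reached 1 TPM.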
